A study of Mus musculus with 18 samples.

Results

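The genes described here are the nuclear import receptors Tnpo1, Tnpo2, Tnpo3, Kpna1, Kpna2, Kpna3, Kpna4, Kpna6, Kpna7 and Kpnb1, 10 of the 19935 genes that the array's annotation names singly. They were chosen by gene symbol. For each gene the probe set with the highest mean level over all 18 embryos was used among those that name the gene alone, so a high level was part of the choice and is given as a description. Only Kpna2 had more than 1 such probe set. All 10 probe sets had a mean at or above 6.47, the median of the means of all 28815 probe sets on the log2 scale, which separates dim from bright probe sets here.

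Each of the 18 arrays held the amplified RNA of 1 mouse 2-cell embryo. The 9 WT embryos came from the wild-type fathers WT1, WT2 and WT3, and the 9 Parg(110)-/+ embryos came from the Parg(110)-/- fathers PargA, PargB and PargC, with 3 embryos per father. All mothers were wild-type, all matings were natural and all mice had the 129SVE (=129S6/SvEvTac, Taconic) background. The fathers lacked exons 2 and 3 of Parg, the glycohydrolase that degrades poly(ADP-ribose), and their sperm chromatin keeps histones abnormally; the question was whether this alters transcripts in the offspring. The Parg(110)-/+ embryos carried the deletion on the paternal allele with the maternal allele intact, so what comes from the sperm and what comes from the embryo's own genotype cannot be told apart. Embryos are named by father and number (PargB-1 to PargB-3 for the offspring of PargB).

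Proteins above a limiting size enter the nucleus bound to a receptor that recognises a signal in the cargo and passes through the nuclear pore. Kpnb1 (importin beta) carries cargo mostly through an adaptor of the importin alpha family, which the Kpna genes encode, whereas Tnpo1, Tnpo2 and Tnpo3 bind their cargo directly. Inside the nucleus the small GTPase Ran releases the cargo, and at the 2-cell stage, when the mouse embryo turns from stored maternal RNA to its own transcription, transcription factors, histones and splicing factors all have to be imported.

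Levels are RMA values on the log2 scale, in which 1 unit is a 2-fold change. Parg itself ran from 9.55 to 10.89 in WT and from 9.37 to 10.83 in Parg(110)-/+ embryos, which keep the maternal allele; whether its probe set lies in the deleted exons is not given in the sources used here, so it does not check the labels. The medians of the arrays lay between 6.34 and 6.49 in WT and between 6.44 and 6.53 in Parg(110)-/+ embryos. All 9 measured markers of the maternal store, among them Zp3 and Gdf9, were bright, as were 3 of 4 measured markers of the 2-cell stage. Of markers of other cells, 1 of 7 for cumulus, granulosa and oviduct cells, 0 of 5 for blood and 3 of 6 for sperm and spermatids were bright. The mean level of the sperm list ranged from 5.84 to 6.32 in WT and from 6.02 to 6.23 in Parg(110)-/+ embryos, and that of the blood list from 5.16 to 5.38 and from 5.29 to 5.44. Whether such cells take part in any difference below was not tested. The array does not resolve whether fewer transcripts of a gene reflect less transcription or faster loss of maternal RNA.

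Promoter sequence (250 bases upstream of a RefSeq transcript start, build GRCm38.p6) was at hand for 7 of the 10 genes and not for Kpna1, Kpna3 and Kpna6. The promoters of Tnpo3, the one member called below, of Kpna7 and of Kpnb1 are shown because they differ widely in CpG content, the sequence feature to which histone retention in sperm is commonly related. CpG dinucleotides are in capitals and each sequence reads 5′ to 3′ on the minus strand, on which all 3 genes lie.
Tnpo3, chr6:29609850-29610099: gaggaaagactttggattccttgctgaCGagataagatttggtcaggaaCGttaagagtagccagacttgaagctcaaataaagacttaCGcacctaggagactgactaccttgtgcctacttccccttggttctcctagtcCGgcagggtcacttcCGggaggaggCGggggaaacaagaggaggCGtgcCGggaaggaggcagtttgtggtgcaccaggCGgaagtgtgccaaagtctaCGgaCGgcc
Kpna7, chr5:145009637-145009886: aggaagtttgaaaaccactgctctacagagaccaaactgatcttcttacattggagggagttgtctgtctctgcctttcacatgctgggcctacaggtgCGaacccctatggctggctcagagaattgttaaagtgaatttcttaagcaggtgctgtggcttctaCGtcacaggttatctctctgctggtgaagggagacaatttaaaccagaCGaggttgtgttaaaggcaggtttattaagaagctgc
Kpnb1, chr11:97187893-97188142: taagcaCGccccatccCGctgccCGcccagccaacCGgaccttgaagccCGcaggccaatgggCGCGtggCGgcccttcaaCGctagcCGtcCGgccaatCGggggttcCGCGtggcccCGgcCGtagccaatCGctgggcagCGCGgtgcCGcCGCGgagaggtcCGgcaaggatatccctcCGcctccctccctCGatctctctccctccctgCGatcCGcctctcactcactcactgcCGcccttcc
The Tnpo3 promoter held 11 CpG dinucleotides, and 64.4% of 32851 promoters of the same length held fewer. The Kpna7 promoter held 3 (29.0% held fewer) and the Kpnb1 promoter 28 (92.4% held fewer), against a median of 6 over all promoters. CCAAT, searched on both strands, was found 3 times in the Kpnb1 promoter, once in that of Kpna7 and not in that of Tnpo3, and 33.8% of all promoters held it. GGGCGG, on both strands, was found 2 times in the Kpnb1 promoter and in neither of the other two, and 32.7% of all promoters held it. CACGTG and TATAAA, on both strands, were in none of the 3, and 6.02% and 12.4% of all promoters held them. These matches describe the sequence, and no binding or histone measurement over these promoters was used here.

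Across the genotypes none of the 10 genes passed the threshold. All 9 Parg(110)-/+ embryos lay below the mean of WT for Tnpo3 and for Kpna1, as was so for 1.85% of all probe sets and 1.48% of the bright ones. For Kpna7 8 of 9 lay above it. The share of all probe sets with that count was not computed, and 67.1% of them were higher in Parg(110)-/+ embryos. limma called 0 of the 10 members at an adjusted p under 0.1, beside 0.0% of all probe sets. At an unadjusted p under 0.05, 3 members passed with limma, with the one-way test of the study's methods and with a random block for the father, and 2 passed with means per father. Of all probe sets, 10.5% passed that unadjusted threshold with limma. Of the 10 members 5 were higher and 5 lower in Parg(110)-/+ embryos with a median difference of -0.0025, beside a median of 0.051 over all probe sets and 0.037 over the bright ones.

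**Figure D1:**
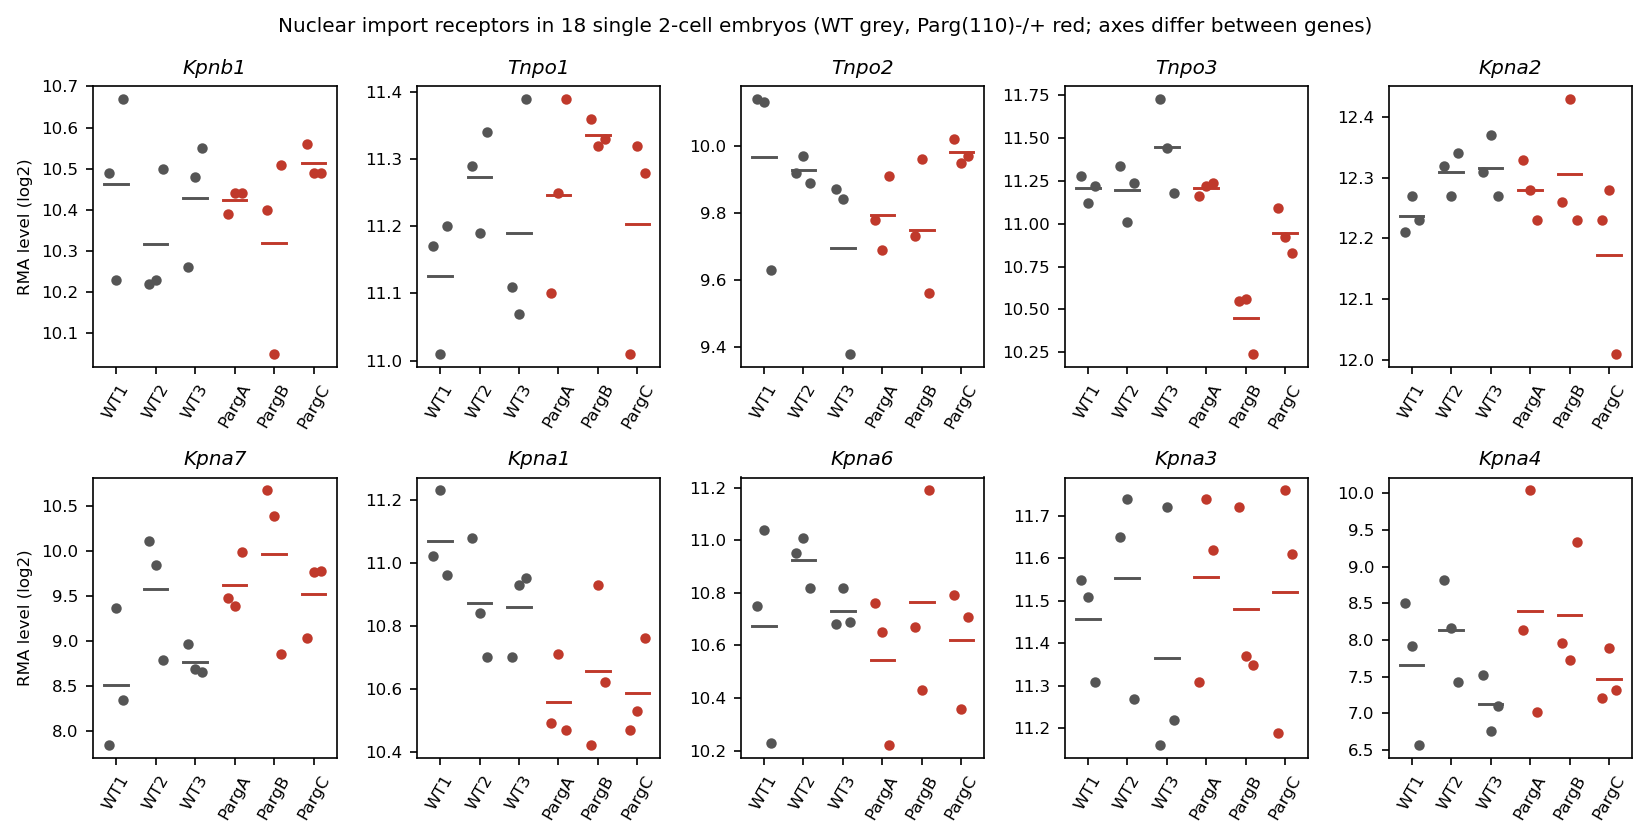
RMA level (log2) of each import receptor in the 18 single 2-cell embryos by father, WT in grey and Parg(110)-/+ in red, where a point is 1 embryo, a bar is the mean of 3 embryos and the axes differ between genes. For Tnpo3 the 3 PargB embryos lie at 10.24 to 10.56, below the lowest WT embryo at 11.01.

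Tnpo3 (transportin 3), on chromosome 6 (29540827 to 29609858), carries SR splicing factors, recognising their phosphorylated arginine-serine domains. Its levels were 11.28, 11.12 and 11.22 for WT1 offspring, 11.34, 11.01 and 11.24 for WT2 offspring, and 11.73, 11.44 and 11.18 for WT3 offspring. PargA offspring measured 11.16, 11.22 and 11.24, PargB offspring 10.55, 10.56 and 10.24, and PargC offspring 11.09, 10.92 and 10.83. All 3 PargB embryos and 2 PargC embryos lay below every WT embryo, whereas the PargA embryos lay inside the WT range. WT embryos averaged 11.28 ± 0.21 (SD, n = 9), and Parg(110)-/+ embryos averaged 10.87 ± 0.35 (SD, n = 9). The genotype difference was -0.42 ± 0.13 (SE, log2; 95% interval -0.70 to -0.14), which is 1.34-fold lower, with an adjusted p of 0.362 by limma. The SE and interval, here and for the other members below, count embryos as independent although 3 share each father. With means per father the adjusted p of Tnpo3 was 0.642 by limma. Without the offspring of PargB the genotype difference was -0.21 (limma, adjusted p = 0.753).

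By father, Tnpo3 lay furthest below WT in PargB offspring. Ordered by their mean level the fathers were WT3 (11.45), WT1 and PargA (both 11.21), WT2 (11.20), PargC (10.95) and PargB (10.45), and SDs within a father ran from 0.04 to 0.28. The neighbours WT1, PargA and WT2 differed by less than these SDs, and WT3 exceeded WT1 by 0.24, within the SD of WT3 (0.28). PargC lay 0.25 below WT2 (SDs of 0.13 and 0.17) and PargB 0.50 below PargC (SDs of 0.18 and 0.13). Against the 9 WT embryos the log2 difference was -0.84 ± 0.12 (SE) in PargB embryos, 1.79-fold lower, with an adjusted p of 0.0487 by limma. It was -0.34 ± 0.12 in PargC embryos (limma, adjusted p = 0.556) and -0.08 ± 0.12 in PargA embryos (limma, adjusted p = 0.997). The 3 contrasts share the same WT embryos. Each contrast also rests on the offspring of a single father, and its SE counts embryos as independent. The call in PargB embryos therefore cannot tell the father from the mother, the litter or the collection of these embryos. The part of any of these in the difference was not tested.

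Tnpo3 was thus the 1 member of 10 called in PargB embryos, where 4 of 28815 probe sets (0.0139%) were called in either direction and 2 (0.00694%) were called lower. That number of probe sets rested on the embryos, being 72 without PargB-2, 68 without PargB-3, 35 without PargB-1, 7 without WT1-3, 1 without WT1-1 or WT2-1, and 2 without WT3-1, PargC-1 or PargC-3. By limma 0 members were called in PargA embryos, beside 0.0% of all probe sets, and 0 in PargC embryos, beside 0.0104%. At an unadjusted p under 0.05, 3 members passed in PargB embryos (12.8% of all probe sets), 1 in PargA embryos (5.32%) and 2 in PargC embryos (7.24%). The other 3 probe sets called in PargB embryos, named here after their values were seen, were Utp15, a factor of ribosomal RNA processing, at -0.83 ± 0.085 (limma, adjusted p = 0.00119), Mvd, an enzyme of the mevalonate pathway, at 0.34 ± 0.054 (limma, adjusted p = 0.0838), and a probe set with no gene name. The genes were chosen with earlier results of these data known, so this call is no independent support. All 3 embryos lay below the lowest WT embryo for 0.264% of all probe sets and for 0.465% of the bright ones. The call was lost when WT1-1 was left out (-0.84, limma adjusted p = 0.113) or WT2-1 (-0.83, limma adjusted p = 0.107), and it was kept when any 1 PargB embryo was left out (-0.89 to -0.73, limma adjusted p 0.0282 to 0.0656). In PargB embryos the mean level of the cumulus, granulosa and oviduct list ran from 5.91 to 6.10 against 5.61 to 5.97 in WT embryos, with 1 of its 7 genes (Col1a2) bright. The blood list ran from 5.36 to 5.43 against 5.16 to 5.38 with 0 of 5 genes bright, and the list of the 2-cell stage ran from 8.35 to above the WT maximum against 7.50 to 9.30 in WT embryos. PargB-1 had the lowest mean correlation with the other arrays (0.937). The part of any of these in the Tnpo3 difference was not tested.

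The difference between the fathers themselves was tested within each genotype. limma's F test called 0 of 10 members between the Parg(110)-/- fathers, beside 0.0104% of all probe sets, and 1 member passed an unadjusted p under 0.05, as did 5.34% of all probe sets. That member was Tnpo3, whose family means spanned 0.76 (limma, adjusted p = 0.74). Between the WT fathers 0 members were called, beside 0.00347% of all probe sets, and 0 passed the unadjusted threshold, which 4.39% of all probe sets passed; the family means of Tnpo3 spanned 0.25.

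Embryo by embryo, each Parg(110)-/+ embryo was compared with the 9 WT embryos. Of 90 values (10 members in 9 embryos) 1 was called, beside 0.865% of all such values over all probe sets. It was Tnpo3 in PargB-3, at -1.05 ± 0.21 (limma, adjusted p = 0.0912), where 0.826% of all probe sets were called. Tnpo3 differed by -0.74 in PargB-1 (limma, adjusted p = 0.189) and by -0.73 in PargB-2 (limma, adjusted p = 0.317). The call in PargB-3 was lost in 7 of the 9 fits that left out 1 WT embryo. With every WT embryo compared in the same way with the remaining 8, 0 of 90 values were called, beside 0.731% over all probe sets. At an unadjusted p under 0.05 there were 13 of 90 values in Parg(110)-/+ embryos, beside 7.22% over all probe sets, and 3 of 90 in WT embryos, beside 5.81%. The 13 are not separate results, since all were set against the same 9 WT embryos. Among them were Tnpo3 in PargB-1, PargB-2 and PargB-3, and Kpna1 in PargA-1, PargA-3, PargB-1, PargC-1 and PargC-2.

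**Figure D2:**
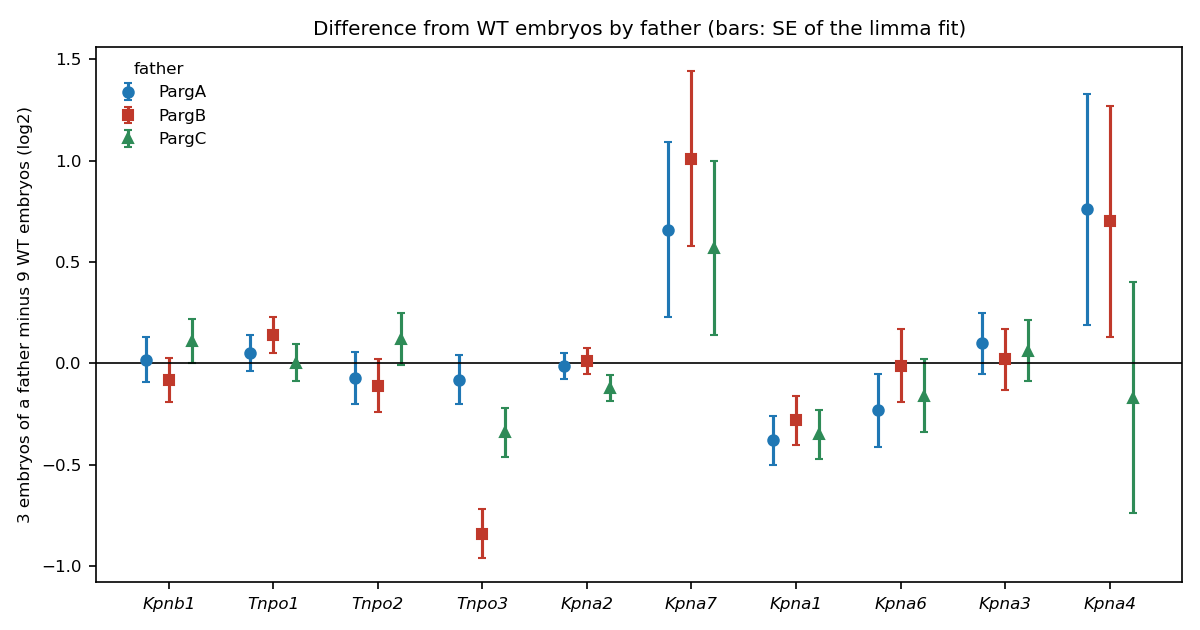
Difference (log2) between the mean of the 3 embryos of PargA (blue circles), PargB (red squares) and PargC (green triangles) and the mean of the 9 WT embryos for each import receptor, with bars for the SE of the limma fit. Tnpo3 in PargB embryos (-0.84) is the one difference called, Kpna1 lies below 0 for all 3 fathers, and the bars of Kpna4 and Kpna7 are the widest.

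Of the other carriers, Tnpo1 and Tnpo2 kept levels in Parg(110)-/+ embryos within the WT range or close to its edge. Kpnb1 stayed within the WT range except in PargB-2, which lay below it at 10.05. Kpnb1 (chromosome 11, 97159710 to 97187892) ran from 10.22 over a median of 10.48 to 10.67 in WT and from 10.05 over 10.44 to 10.56 in Parg(110)-/+ embryos. The difference was 0.016 ± 0.076 (95% interval -0.14 to 0.18; limma, adjusted p = 0.948). Its sign turned under equal array medians (-0.04), so no direction can be given.

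Tnpo1 (transportin 1, chromosome 13, 98839019 to 98926384), which imports hnRNP proteins, ran from 11.01 over a median of 11.19 to 11.39 in WT and from 11.01 over 11.32 to 11.39 in Parg(110)-/+ embryos. The difference was 0.065 ± 0.062 (95% interval -0.067 to 0.20; limma, adjusted p = 0.703). Its paralog Tnpo2 (chromosome 8, 85036873 to 85057585) ran from 9.38 over a median of 9.89 to 10.14 in WT and from 9.56 over 9.91 to 10.02 in Parg(110)-/+ embryos. The difference was -0.021 ± 0.094 (95% interval -0.22 to 0.18; limma, adjusted p = 0.944), and its sign turned under a second quantile normalization (0.0027).

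Among the adaptors Kpna1 (importin alpha 5 in the human nomenclature, chromosome 16, 35983288 to 36037136) had the smallest unadjusted p of the 10 genes. Its levels were 11.02, 11.23 and 10.96 for WT1 offspring, 11.08, 10.84 and 10.70 for WT2 offspring, and 10.70, 10.93 and 10.95 for WT3 offspring. PargA offspring measured 10.49, 10.71 and 10.47, PargB offspring 10.42, 10.93 and 10.62, and PargC offspring 10.47, 10.53 and 10.76. The groups overlapped. Below the lowest WT embryo lay 6 of 9 Parg(110)-/+ embryos, 2 from each father (share over all probe sets not computed). All 9 lay below the WT mean, as was so for 1.85% of all probe sets and 1.48% of the bright ones. The genotype difference was -0.34 ± 0.08 (95% interval -0.50 to -0.17), 1.26-fold lower (limma, unadjusted p = 0.000582, adjusted p = 0.362). By father it was -0.38 in PargA, -0.28 in PargB and -0.35 in PargC embryos (SE 0.12 each; limma, adjusted p = 0.862, 0.345 and 0.546). Its family means spanned 0.10 between the Parg(110)-/- fathers (limma, adjusted p = 0.998).

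Kpna7 (chromosome 5, 144983727 to 145009636) encodes an importin alpha that is largely restricted to the oocyte and early embryo. Its levels were 7.84, 9.36 and 8.34 for WT1 offspring, 10.11, 9.84 and 8.79 for WT2 offspring, and 8.96, 8.69 and 8.65 for WT3 offspring. PargA offspring measured 9.47, 9.39 and 9.99, PargB offspring 10.67, 10.38 and 8.85, and PargC offspring 9.03, 9.76 and 9.78. The groups overlapped over most of their range, and PargB-1 and PargB-2 alone lay above every WT embryo. The difference was 0.75 ± 0.30 (95% interval 0.12 to 1.37), 1.68-fold higher (limma, adjusted p = 0.423). WT2 embryos, with a mean of 9.58, lay as high as those of PargA (9.61) and PargC (9.52), so the family means of the genotypes overlapped too.

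Kpna2 (chromosome 11, 106988629 to 106999525), an adaptor abundant in pluripotent cells, was steady between embryos, with an SD of 0.087 over all 18 beside a median SD of 0.324 over bright probe sets. That median covers bright probe sets of every level and not only those near 12.27, the mean of Kpna2, so a part of the level in the low SD was not tested. Kpna2 ran from 12.21 over a median of 12.27 to 12.37 in WT and from 12.01 over 12.26 to 12.43 in Parg(110)-/+ embryos, with a difference of -0.039 ± 0.047 (limma, adjusted p = 0.764). All 3 of its probe sets followed each other over the 18 embryos (r of 0.912 to 0.955) and never differed by more than 0.16. A pseudogene, Kpna2-ps, lies on chromosome 17 (47620611 to 47622467), and which copy each probe set reads is not given in the sources used here.

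Kpna6 (chromosome 4, 129643979 to 129672767), an adaptor whose maternal store is needed in the cleaving mouse embryo, ran from 10.23 over a median of 10.82 to 11.04 in WT and from 10.22 over 10.67 to 11.19 in Parg(110)-/+ embryos. The difference was -0.13 ± 0.12 (95% interval -0.39 to 0.12; limma, adjusted p = 0.684). Kpna3 (chromosome 14, 61365186 to 61439947) ran from 11.16 over 11.51 to 11.74 in WT and from 11.19 over 11.61 to 11.76 in Parg(110)-/+ embryos, with a difference of 0.06 ± 0.10 (95% interval -0.15 to 0.27; limma, adjusted p = 0.835). Its closest relative Kpna4 (chromosome 3, 69072221 to 69127092) spread the most of the 10 genes, over 3.48 units, from 6.56 over 7.52 to 8.81 in WT and from 7.01 over 7.89 to 10.04 in Parg(110)-/+ embryos. Its difference of 0.43 ± 0.40 (95% interval -0.42 to 1.28; limma, adjusted p = 0.692) was 0.19 without PargA-2 and 0.28 without PargB-3, and without a father it ran from 0.18 (WT3) to 0.73 (PargC).

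The spread between embryos of a genotype was compared because not every sperm of a Parg(110)-/- male is affected alike. With limma on absolute deviations from the genotype's median, 0 of 10 members were called, beside 0.0% of all probe sets. Deviations of 9 against 9 embryos rarely pass an adjusted threshold, so the absence of calls does not show that the spread was alike. At an unadjusted p under 0.05 there were 0 members, beside 2.42% of all probe sets. The SD in Parg(110)-/+ embryos was 1.69 times that in WT for Tnpo3 (0.35 and 0.21; limma, adjusted p = 0.991) and 2.14 times for Kpna2 (0.11 and 0.05; limma, adjusted p = 0.991). The ratio was above 1 for 5 of 10 members, and its median over bright probe sets was 1.03. For Tnpo3 the Parg(110)-/+ SD takes in differences between fathers, with means of 11.21 (PargA), 10.45 (PargB) and 10.95 (PargC). Within these fathers the Tnpo3 SDs were 0.04, 0.18 and 0.13, and within WT1, WT2 and WT3 they were 0.08, 0.17 and 0.28. For Kpna2 a single embryo, PargC-3 at 12.01, stood far from the other Parg(110)-/+ embryos.

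The likeness of the members to each other was near that of bright genes in general. Of their 45 pairs 0 had a Pearson r above 0.5 over the 18 embryos, which 3.38% of pairs of bright genes had, and the median r was -0.01 beside 0.013. The 1 pair below -0.5, where 2.13% of pairs of bright genes lay, was Kpna7 and Kpnb1 (r of -0.59 over 18 embryos, -0.80 in the 9 WT and -0.60 in the 9 Parg(110)-/+ embryos). The 18 points of each correlation share arrays, amplification and normalization.

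Among 10254 bright genes, those most like Tnpo3 over the 18 embryos were Bbs4, a subunit of the BBSome (r = 0.78), Malat1, a long noncoding RNA of nuclear speckles (0.78), Smarcc1, a chromatin remodeller subunit (0.75), the kinase Cdk11b (0.74) and Nvl, an ATPase of ribosome biogenesis (0.74). Malat1 stood at 7.20 in PargB-2 and 4.72 in PargB-3, against 9.22 to 11.95 in WT, and inside the WT range in PargB-1. It was also below every WT embryo in PargA-2 (8.21), where Tnpo3 lay inside the WT range, and in PargC-3 (9.18). Bbs4 stood at 6.17, 6.38 and 5.99 in the PargB embryos, below all WT embryos (6.62 to 9.34). These Bbs4 values, like that of Malat1 in PargB-3, lay below 6.47, the line between dim and bright. Within the 9 WT embryos alone r was 0.77 for Bbs4 and 0.59 for Malat1. The genes were picked as the highest r of 10254 with these embryos included, so high values follow in part from that choice. For Smarcc1 r fell to 0.53 without the 2 embryos whose Tnpo3 level was farthest from the median.

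The most alike gene was Rad23b for Kpna7 (r = 0.87), Fnbp1l for Kpna3 (0.84), Rnpc3 for Tnpo2 (0.83), Rpl38 for Kpna2 (0.81), Becn1 for Kpna1 (0.80), Snord82 for Tnpo1 (0.79), Tbx3 for Kpnb1 (0.77), Aste1 for Kpna6 (0.73) and Cdkn2d for Kpna4 (0.70). Rad23b, a factor of nucleotide excision repair, followed Kpna7 within WT (0.92) and within Parg(110)-/+ embryos (0.74). Rpl38, by contrast, followed Kpna2 at 0.90 in Parg(110)-/+ but at 0.22 in WT embryos, and at 0.39 over all embryos without the 2 farthest. Each of these genes had the highest r of 10254 over the same 18 embryos, so r is high by selection. The r within a genotype is therefore no separate support.

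**Figure D3:**
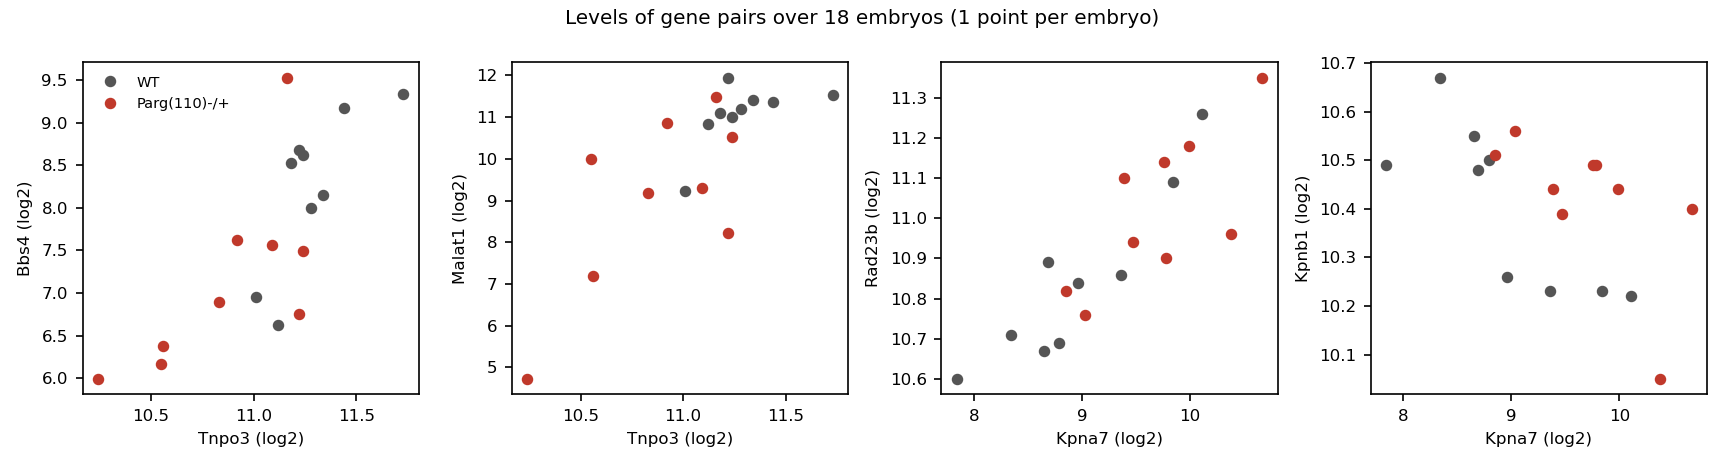
Levels (log2) of pairs of genes in the 18 embryos, WT in grey and Parg(110)-/+ in red, 1 point per embryo, for Tnpo3 with Bbs4 and with Malat1 and for Kpna7 with Rad23b and with Kpnb1. The 3 embryos lowest in Tnpo3 come from PargB and lie at the low end of Bbs4 (5.99 to 6.38). These Bbs4 values are below 6.47, the line between dim and bright. The r of Kpna7 with Kpnb1 is -0.59.

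The partners of the import receptors were taken from 6 lists, of which 66 genes were measured. limma called 0 of the 66 between the genotypes, beside 0.0% of all probe sets, and 5 passed an unadjusted p under 0.05, which 10.5% of all probe sets passed. That number was 6 by the one-way test of the methods, 7 with a random block for the father and 8 with means per father. In all, 52 of the 66 were lower in Parg(110)-/+ embryos with a median difference of -0.11, where 32.9% of all probe sets and 41.4% of the bright ones were lower. These counts carry no test.

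Of the other importins 7 of 8 were lower, with a median of -0.15. The pair with the smallest p was Ipo5, a receptor of ribosomal proteins and histones, at -0.23 ± 0.10 (limma, adjusted p = 0.45) and Ipo11 at -0.32 ± 0.18 (limma, adjusted p = 0.529). Of the export receptors 6 of 7 were lower, with a median of -0.16, among them Cse1l, which returns the Kpna adaptors to the cytoplasm, at -0.28 ± 0.17 (limma, adjusted p = 0.555), and the tRNA exporter Xpot at -0.58 ± 0.37 (limma, adjusted p = 0.566). The Ran cycle, which sets the direction of transport, had 5 of 7 genes higher and a median of 0.092. Rangap1, which stimulates GTP hydrolysis by Ran, stood at 0.22 ± 0.13 (limma, adjusted p = 0.538) and Ranbp2, on the cytoplasmic face of the pore, at -0.29 ± 0.15 (limma, adjusted p = 0.501).

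Of the nucleoporins 22 of 27 were lower, with a median of -0.12. Nup155, of the inner ring of the pore, averaged 10.33 ± 0.38 (SD, n = 9) over WT embryos and 9.45 ± 0.63 (SD, n = 9) over Parg(110)-/+ embryos. All 9 of the latter were under the WT mean, as was so for 1.85% of all probe sets and 1.48% of the bright ones. The difference of Nup155, -0.88 ± 0.23, had an adjusted p of 0.362 by limma. Nupl2 lay above the WT mean in 9 of 9, at 0.22 ± 0.071 (limma, adjusted p = 0.362). Its means of 6.38 in WT and 6.59 in Parg(110)-/+ embryos lay near 6.47, the line between dim and bright. Of all probe sets, 67.1% were higher in Parg(110)-/+ embryos, and the share with 9 of 9 above the WT mean was not computed.

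Last came the cargoes of the transportins. Of the SR proteins carried by Tnpo3, 9 of 10 were lower but by little, with a median of -0.013. Srsf3 stood at -0.29 ± 0.22 (limma, adjusted p = 0.624) and Srsf10 at 0.068 ± 0.064 (limma, adjusted p = 0.693). In PargB embryos, where Tnpo3 was lowest, 6 of the 10 SR protein genes were higher and 4 lower than in WT. Of all probe sets 67.4% were higher there, and of the bright ones 59.5%. The SR median was 0.012, beside 0.071 over all probe sets, and 0 were called by limma. Medians in PargB embryos were -0.41 for export receptors, -0.18 for other importins and -0.16 for nucleoporins. They were -0.11 for Tnpo1 cargoes and -0.024 for the Ran cycle, with 0 genes called in each list by limma. Between the genotypes, 6 of the 7 cargoes of Tnpo1 were lower with a median of -0.10. Hnrnpa2b1, an RNA-binding protein, stood at -0.25 ± 0.075 (limma, adjusted p = 0.362), under the WT mean in 8 of 9 Parg(110)-/+ embryos. The share of all probe sets with that count was not computed. The mRNA exporter Nxf1 stood at -0.12 ± 0.067 (limma, adjusted p = 0.513).

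**Figure D4:**
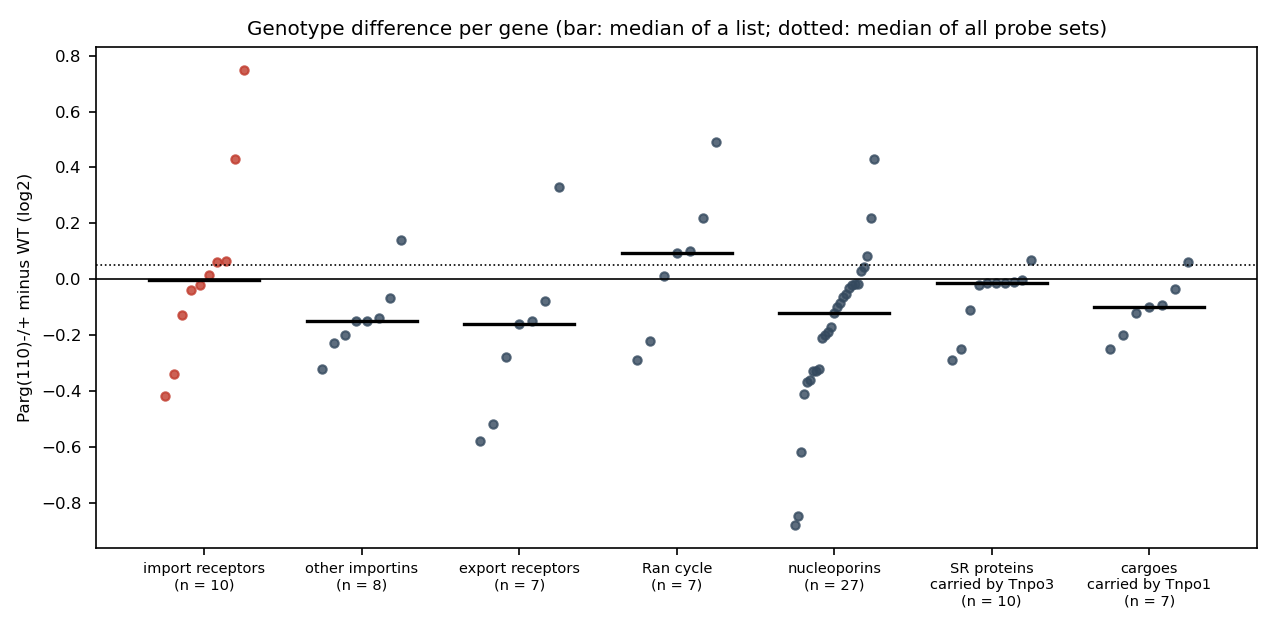
Difference between Parg(110)-/+ and WT embryos (log2) per gene for the import receptors (red) and 6 lists of transport partners (blue), where a point is a gene, a bar the median of the list and the dotted line the median of all probe sets (0.051). No point passed the threshold, and the medians of the nucleoporins (-0.12) and export receptors (-0.16) lie below 0.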

How the data were processed

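RNA of single 2-cell embryos was amplified with the WT-Ovation One-Direct kit (NuGen) and hybridized to Affymetrix Mouse Gene 1.0 ST arrays. The deposited log2 values were made by the authors with RMA (background correction, quantile normalization, log2 transformation, probe set summarization) in Partek; versions are not given in the sources used here. Quantile normalization reduces a change shared by most genes, and values near background are compressed. Slides and scan days were not used, and the number of embryos limits precision.

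Genes were named from the platform annotation (21780 of 28815 probe sets with 1 gene, 1605 with several, 5430 unnamed). Embryos of a father are separate animals. limma 3.58.1 in R 4.3.3 (lmFit and eBayes, two-sided, Benjamini-Hochberg over all probe sets, call at an adjusted p under 0.1) compared genotypes, each Parg(110)-/- father's embryos with WT embryos, fathers, single embryos and spread. The procedure was tested on simulated data, where the spread test was checked only at an unadjusted p under 0.05. Named were all members, the 2 genes of each list with the smallest genotype p, and the genes most correlated with a member (5 for Tnpo3, 1 for each other). Members and lists were chosen with earlier results of these data known. Scalings, a father block, means per father, the methods' one-way test, dim probe sets left out, eBayes with trend and robust settings, another Kpna2 probe set, and embryos or fathers left out were tried. Python 3.11.15 with pandas 2.3.3 made tables.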

Additional observations from a re-analysis of the deposited data

Results flagged for a closer look

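In 3 of the 20 groups checked (10 genes in 2 genotypes, 9 embryos each) 1 embryo stood far from the rest of its group by Dixon's test, and chance alone marks about 1 group in 20. Kpna2 was lowest in PargC-3, at 12.01 where the other 8 Parg(110)-/+ embryos lay between 12.23 and 12.43. Its other probe sets were also lowest in PargC-3 (11.90 and 11.93). Kpna6 was lowest in WT1-3, at 10.23 where the other WT embryos lay between 10.68 and 11.04. Kpnb1 was lowest in PargB-2, at 10.05 where the other Parg(110)-/+ embryos lay between 10.39 and 10.56.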

How the results depend on the processing

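Of 1071 values under alternative settings of 46 results, 980 kept their direction and their side of the threshold or moved little. Many of them had little room to change, because counts of called members were mostly 0 and some fits left out embryos outside the groups compared. The number that stayed is therefore no measure of robustness. No member was called between the genotypes, between fathers or by spread under any alternative run. Tnpo3 in PargB embryos ranged from -0.89 to -0.73 (limma, adjusted p 0.00813 to 0.113) over fits without 1 embryo, and members called there numbered 0 to 1; with equal array medians it was -0.92 (limma, adjusted p = 0.0429). Tnpo3 between the genotypes was -0.21 without father PargB against -0.42. Members called over single embryos were 0 with dim probe sets left out, 0 with equal array medians, and 0 to 2 without 1 WT embryo. The sign turned for Tnpo2 without father PargA (0.004), WT2 (0.01), WT1 (0.030) or PargB (0.024), under a second quantile normalization (0.0027) and without 1 embryo (range -0.082 to 0.014); for Kpna2 without father PargC (0.00032); and for Kpnb1 without father WT2 (-0.028) or PargC (-0.032), with equal array medians (-0.04) and without 1 embryo (-0.0069 to 0.062). Probe sets called between the genotypes were 3 without father WT1 and 0 to 1 without 1 embryo. In PargB embryos 2 were called with dim probe sets left out and under either other scaling (equal medians, second quantile normalization), and 1 to 72 without 1 embryo. Without 1 embryo, calls numbered 0 to 20 in PargA, 3 to 32 in PargC, 0 to 17 between WT fathers (0 with dim probe sets left out), 2 to 16 between Parg(110)-/- fathers and 0 to 1 for spread (22 with deviations from the mean). Over single embryos 880 were called with dim probe sets left out against 2242. The cause of these changes was not tested. No paired analysis was possible because the genotypes have different fathers and the replicate numbers follow accession order.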
